A study of Mus musculus with 5 samples.

Results

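RNF12WT-only exon sites are peaks of the RNF12WT list that have no counterpart in the REX1 or RNF12H569A,C572A lists and whose summits lie in an exon, away from any transcription start site (TSS). They were chosen by the peak calls themselves: a peak on chromosomes 1 to 19 or X was taken if it overlapped no peak of either other list by 1 bp, if its summit was more than 1 kb from the TSS of every transcript in GENCODE release M21, and if the summit lay inside an annotated exon. The rule found 6309 sites among the 97602 peaks of the RNF12WT list and the 291776 peaks of the 3 lists together. On chromosomes 1 to 19 and X, 37848 RNF12WT peaks were in no other list, and 12114 RNF12WT peaks had an exon summit more than 1 kb from a TSS, of which the other 5805 overlapped a REX1 or RNF12H569A,C572A peak. Absence from the other lists is thus a property that chose the sites and not a result.

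What was deposited are lists of peaks called after chromatin immunoprecipitation through the V5 tag and sequencing (ChIP-seq) in mouse embryonic stem cells (mESCs). The RNF12WT and RNF12H569A,C572A libraries came from Rlim+/- mESCs that stably carried FLAG- and V5-tagged RNF12, either WT or with the substitutions H569A and C572A, expressed from a vector with the constitutive pCAG promoter. Both had been treated with 15 μM of the proteasome inhibitor MG132 for 3 h and cross-linked with 2 mM disuccinimidyl glutarate and 1% formaldehyde, 100000000 cells each. REX1 peaks are labelled as V5 ChIP from WT mESCs with FLAG-V5-REX1, although the study refers to earlier work for the genome occupancy of REX1. MG132 treatment, cross-linking and the number of cells were not given for the REX1 library. Each list rests on 1 library, the 2 control libraries were not analysed here, and the read depth behind the lists is unknown, so no test between conditions is given. Intervals are 95% intervals for counting error only, and a site that misses the threshold of another list may still carry signal there.

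RNF12, encoded by Rlim, is a RING-type E3 ubiquitin ligase that marks the transcription factor REX1 (gene symbol Zfp42) for degradation by the proteasome, and this pathway is known for its part in the activation of Xist and in X chromosome inactivation. The RING domain brings the ubiquitin-charged E2 enzyme to the substrate, and the H569A,C572A form is catalytically inactive. Exons comprise coding sequence, which is translated, untranslated regions (UTRs) at both ends of an mRNA, and the exons of non-coding transcripts. Coding sequence is on the whole richer in G and C than introns or 3′ UTRs.

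To show what these sites look like as DNA, the 30 bases from 15 before to 14 after the summit are given for the strongest coding sites in Retreg1, Helz, Dip2c, March8 and Slc19a2, the strongest UTR sites in Myo10 and 1810062G17Rik, and the strongest site in a non-coding exon, in Adam23. They were read from GRCm38 (mm10) on the strand of the gene, which is the plus strand for all 8, and capitals mark CG dinucleotides, whose number is compared with the flanks further on.
Retreg1, chr15:25971793-25971822: gggatgtcatcacagcCGccatgaCGgctg
Helz, chr11:107685436-107685465: tcaacttccCGgccccCGagtcctgggcca
Dip2c, chr13:9536799-9536828: tccaCGcagagtgggggcagtggggcagca
March8, chr6:116401922-116401951: gttccatgagctggagagccatgccagcca
Slc19a2, chr1:164260809-164260838: cCGgctgCGggtgttcagagtcctgtggaa
Myo10, chr15:25812223-25812252: agaCGagccaagcccaCGtgtcttgcCGat
1810062G17Rik, chr3:36482064-36482093: ccaatgCGgtgtcctagttcaaggaggctg
Adam23, chr1:63531445-63531474: tggagttccaggtggctgtgagtagccatg

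Most of the sites were in coding sequence. Of the 6309 summits, 4381 (69.4%, interval 68.3% to 70.6%) lay in the coding sequence of at least 1 transcript, 1258 (19.9%, 18.97% to 20.9%) in a 3′ UTR, 33 in a 5′ UTR, 1 in a UTR that was 5′ in some transcripts and 3′ in others, and 636 (10.1%, 9.36% to 10.8%) in an exon of non-coding transcripts only. Protein-coding genes held 5969 of them, and among the 636 in non-coding exons 296 were in non-coding transcripts of protein-coding genes, 116 in long intergenic non-coding RNAs and 73 in antisense transcripts. The coding share was lower in every class of exon site set beside it except the RNF12WT exon sites that overlapped another list: it was 78.2% (77.1% to 79.2%) there, 65.3% (63.5% to 67.03%) in RNF12H569A,C572A-only exon sites and 50.6% (49.1% to 52.2%) in REX1-only exon sites.

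The sites were not all internal in the sense of lying between the first and last exon. On the longest transcript that held the summit, 3520 (55.8%) were in a middle exon, 2564 (40.6%, 39.4% to 41.9%) in the last exon, 161 in the only exon and 64 in the first exon. For coding sites, 3351 of 4381 (76.5%) were in a middle exon and 965 (22.0%) in the last. The median exon with a site was 480 bp long, 221 bp for coding sites and 2126 bp for 3′ UTR sites. It was 722 bp for RNF12H569A,C572A-only exon sites, 930 bp for RNF12WT exon sites that overlapped another list and 1240 bp for REX1-only exon sites. In 4556 sites (72.2%, 71.1% to 73.3%) the whole peak lay within exon sequence. Coding summits were spread along the transcript, with a median at 38.8% of its length and quartiles of 23.4% and 57.1%.

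Peaks of this set were narrow and of modest enrichment. The authors' fold enrichment over the control at the summit ranged from 2.02 to 10.1 with a median of 4.58, the width from 86 to 533 bp with a median of 111 bp, and the −log10 q from 1.33 to 14.3. The smallest width, 86 bp, was shared by 766 peaks (12.1%). Median enrichment hardly varied with the class of exon, at 4.55 in coding sequence, 4.597 in 3′ UTRs and 4.81 in non-coding exons, and RNF12WT-only peaks in introns (4.73) and between genes (4.81) were alike in this respect. Median widths of RNF12WT-only peaks in introns (104 bp), between genes (103 bp) and at promoters (110 bp) were alike too, so narrowness was not particular to the exon sites. Exon sites of the same list that overlapped another list were wider, with a median of 147 bp, at a median enrichment of 4.59. Among 4 equal groups of the sites by −log10 q, the coding share stayed between 67.5% and 71.3% and the mean GC content at the summit between 60.0% and 61.0%.

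The strongest site of all was in Retreg1, an endoplasmic reticulum receptor for selective autophagy, at chr15:25971724-25971857 in coding sequence of exon 9 of 9, enriched 10.1-fold at a −log10 q of 14.3. The next coding sites were in exon 32 of 33 of the RNA helicase gene Helz (chr11:107685382-107685509), in exon 5 of 37 of Dip2c (chr13:9536742-9536864) and in exon 6 of 9 of the E3 ubiquitin ligase gene March8 (chr6:116401840-116401985), all 3 at 9.32. These equal values come from the authors' list, in which the 6309 sites had 1303 distinct fold enrichments. The thiamine transporter gene Slc19a2 and the zinc transporter gene Slc39a11 each had a site at 8.95, the MAP kinase phosphatase gene Dusp4 at 8.89, the microglial receptor gene Trem2 at 8.84, the antiproliferative factor gene Tob1 at 8.69 and the translation initiation factor gene Eif4g1 at 8.66. All 10 of these summit words occurred once in the genome.

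Among UTR sites the highest fold enrichment, 8.58, was in the 3′ UTR of the unconventional myosin gene Myo10 (chr15:25812196-25812322, exon 41 of 41). 3′ UTR sites in 1810062G17Rik (8.33), the type IV collagen gene Col4a4 (8.21), the mitochondrial import cochaperone gene Grpel2 (8.21) and the cochaperone gene Sgtb (7.77) followed. In non-coding exons, the highest values were in non-coding transcripts of protein-coding genes: 9.69 in Adam23 (chr1:63531402-63531493), 9.32 in the phosphoinositide kinase gene Pip5k1a and 8.63 in the receptor tyrosine kinase gene Erbb2.

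The sites were also set against the exon sequence that could hold them, which left the order of these 3 classes the same. Exon sequence more than 1 kb from every TSS, called eligible exon here, came to 83.7 Mb, of which 25.04 Mb was coding, 30.9 Mb 3′ UTR and 27.1 Mb non-coding exon. There were 175 sites per Mb (170 to 180) in coding sequence, 40.8 (38.5 to 43.1) in 3′ UTR and 23.5 (21.7 to 25.4) in non-coding exon. Coding sequence thus held 4.29 times as many sites per Mb as 3′ UTR. The classes also differ in base composition: the mean GC content within 50 bp of an eligible base was 50.2% in coding sequence, 42.7% in 3′ UTR and 43.1% in non-coding exon.

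The number of sites per Mb followed the local GC content steeply in every class. In coding sequence no site lay in the 3.49 Mb with under 40% GC or in the 3.64 Mb with 40 to 45% GC, and only 5 lay in the 4.77 Mb with 45 to 50%. The rate was 46.4 per Mb (40.8 to 52.6) at 50 to 55% GC, 372 (354 to 390) at 55 to 60%, 795 (760 to 832) at 60 to 65% and 728 (667 to 794) at 65 to 70%, and it was 175 (125 to 237) at 70% and above. In 3′ UTR the corresponding rates were 17.7 per Mb (13.98 to 22.1), 177 (161 to 194), 663 (610 to 719) and 785 (659 to 928), with 373 (198 to 637) at 70% and above. From 50 to 65% GC coding sequence had the higher rate, whereas at 65 to 70%, and at 70% and above with 41 and 13 sites, the intervals of coding sequence and 3′ UTR overlapped. With the 3′ UTR rates weighted to the GC content of coding exon, the excess of coding sequence over 3′ UTR was 1.41-fold instead of 4.29-fold.

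**Figure D1:**
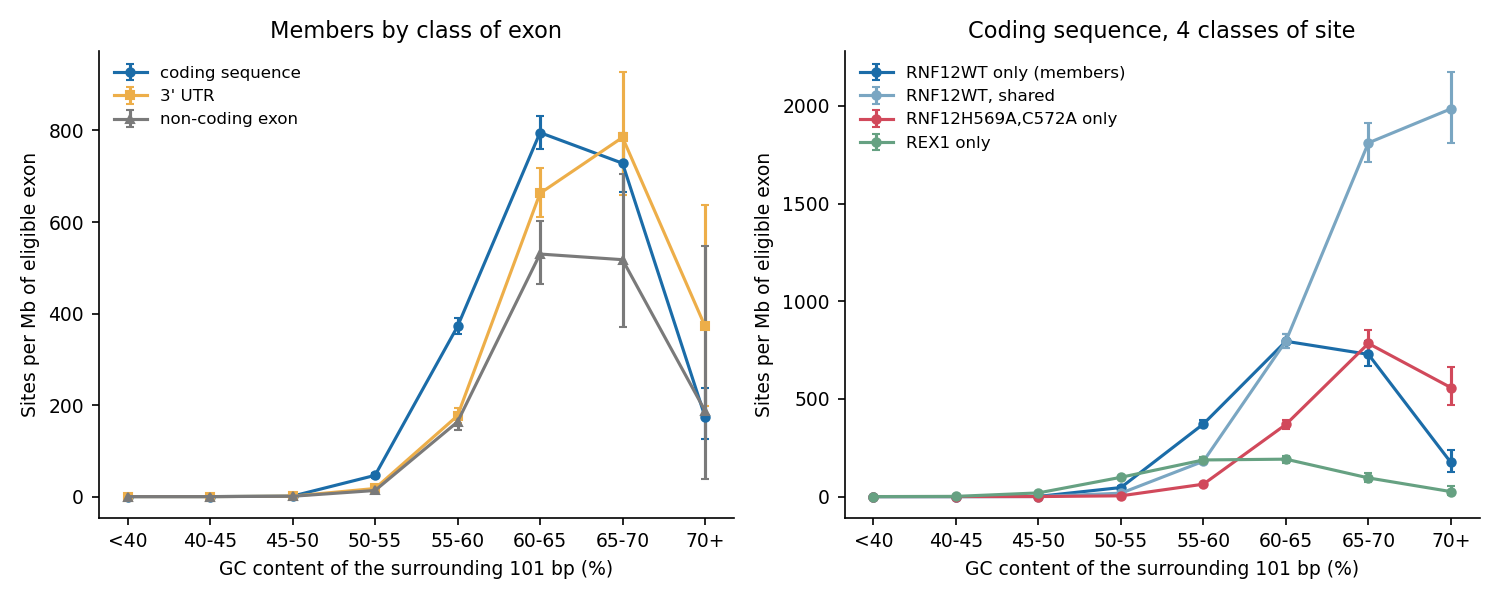
Sites per Mb of eligible exon (y axis) by GC content within 50 bp of each base (x axis), with 95% Poisson intervals as bars. The left panel shows the 6309 sites by class of exon, all near 0 under 50% GC and highest from 60 to 70%; the right panel shows coding sequence only, where RNF12WT sites that overlap another list keep rising to 1985 per Mb at 70% and above, while RNF12WT-only sites fall to 175 per Mb.

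The decline above 70% GC was not seen in RNF12WT exon sites that overlapped another list. Their coding sites had the same rate at 60 to 65% GC (796 per Mb, 761 to 833), but reached 1811 (1713 to 1914) at 65 to 70% and 1985 (1809 to 2174) at 70% and above. RNF12H569A,C572A-only coding sites had rates of 369 (345 to 395), 784 (720 to 853) and 558 (467 to 662) in these bins. Their highest rate thus lay 1 bin further up, and it also fell at 70% and above. REX1-only coding sites were already at 98.8 per Mb (90.5 to 108) at 50 to 55%, reached 192 (174 to 210.1) at 60 to 65%, and fell to 95.7 (74.2 to 122) and 25.6 (9.38 to 55.6) in the bins above. In coding sequence, a lower rate at 70% GC and above than in the bin below was thus common to all 3 classes of exon site found in 1 list only. Put in terms of all RNF12WT exon sites, the share found in no other list was 73.1% (69.1% to 76.8%) of 517 sites at 50 to 55% GC, 68.9% (67.4% to 70.4%) of 3557 at 55 to 60%, 53.5% (52.1% to 54.8%) of 5088 at 60 to 65%, 30.2% (28.3% to 32.1%) of 2282 at 65 to 70% and 8.73% (6.80% to 11.1%) of 653 at 70% and above. Over the same bins the share that overlapped an RNF12H569A,C572A peak went from 11.6% to 89.7%, and the share that overlapped a REX1 peak from 19.5% to 61.1%. Since these overlaps are what the rule used, the shares describe the selection.

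**Figure D2:**
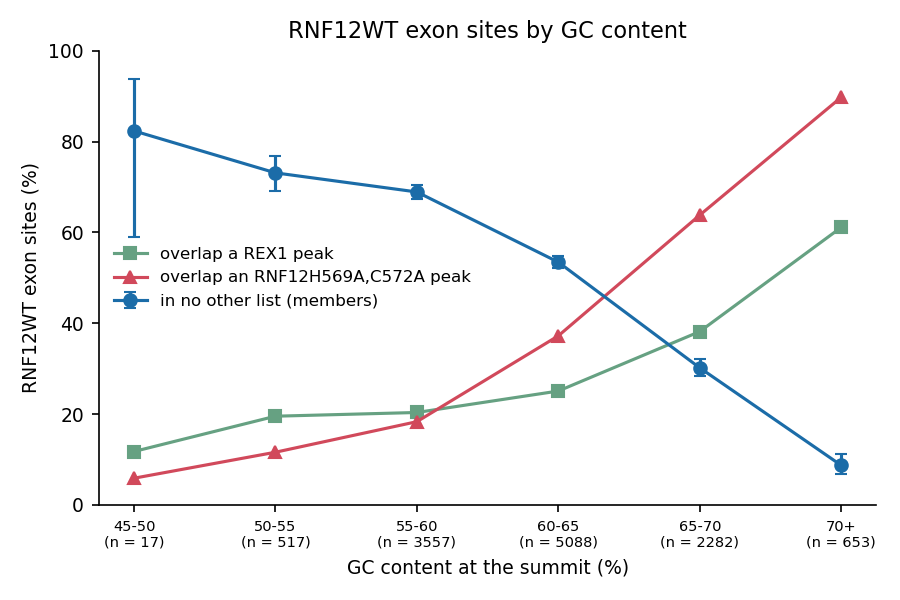
Share of the 12114 RNF12WT exon sites (y axis, %) that were in no other list, overlapped a REX1 peak or overlapped an RNF12H569A,C572A peak, by GC content within 50 bp of the summit (x axis, %), with 95% Wilson intervals on the first share. The share in no other list drops from 73.1% at 50 to 55% GC to 8.73% at 70% and above, and the share with an RNF12H569A,C572A peak ends at 89.7%.

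At the summits themselves, GC content averaged 60.4% ± 3.75 (SD over 6309 sites) within 50 bp and 50.3% ± 7.03 in flanks 250 to 350 bp away, and it was higher at the summit than in the flanks in 5883 sites (93.2%). The spread at summits was narrow, with 82.0% of the sites between 55 and 65% GC and 14 sites under 50%. Coding sites averaged 60.5% ± 3.74 and 3′ UTR sites 60.6% ± 3.78. Means were 63.7% ± 4.92 in RNF12WT exon sites that overlapped another list, 62.8% ± 4.64 in RNF12H569A,C572A-only exon sites and 56.4% ± 4.43 in REX1-only exon sites. RNF12WT-only sites in introns (59.5% ± 3.79) and between genes (59.4% ± 3.80) were close to the exon sites, at flanks of 48.2% and 47.4%. CG dinucleotides were more frequent at the exon summits, with a mean of 3.46 ± 2.01 within 50 bp against 1.67 ± 1.29 in the flanks. At summits of the other classes the mean was 5.69 ± 3.31 in RNF12WT exon sites that overlapped another list, 4.90 ± 2.53 in RNF12H569A,C572A-only and 2.82 ± 2.00 in REX1-only exon sites, and 2.34 ± 1.73 in RNF12WT-only intron sites. The summits printed above with 1 or no CG in 30 bases, in Dip2c, March8, 1810062G17Rik and Adam23, had GC contents of 60.4%, 60.4%, 59.4% and 64.4% within 50 bp.

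**Figure D3:**
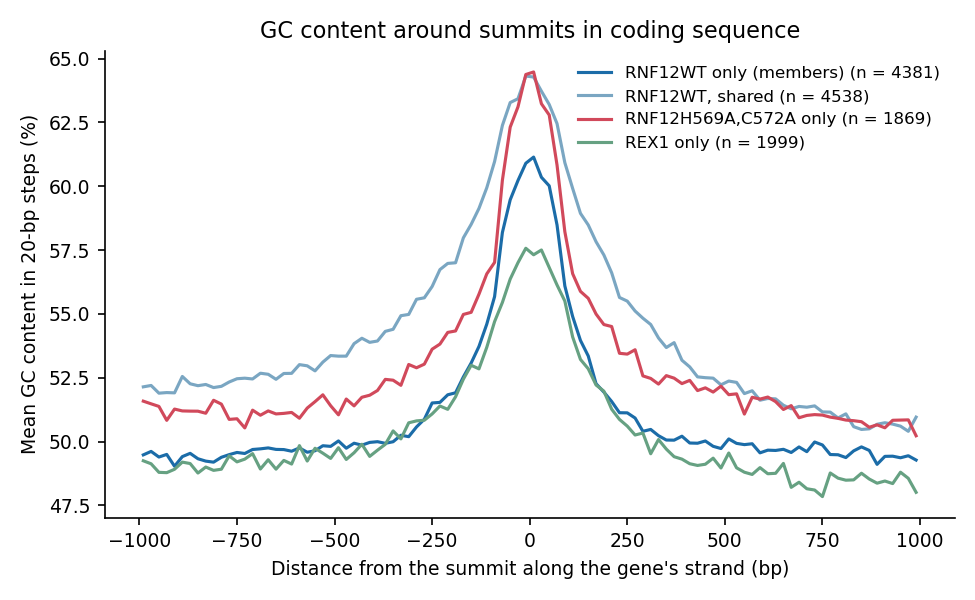
Mean GC content in steps of 20 bp (y axis, %) by distance from the summit along the gene's strand (x axis, bp) for summits in coding sequence of 4 classes of exon site. The 4381 RNF12WT-only sites peak at 61.1% just after the summit and fall to 49.5% near 1 kb upstream; shared RNF12WT and RNF12H569A,C572A-only sites reach 64.3% and 64.5%, REX1-only sites 57.6%.

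In coding sites the excess of G and C fell on all 3 codon positions. Over the 130836 codons within 50 bp of the 4381 coding summits, GC content was 63.0% at position 1, 49.3% at position 2 and 69.7% at position 3. In the longest coding sequence of the same 3133 genes, over codons more than 1 kb from a TSS, it was 58.1%, 43.8% and 62.3%. Arginine codon CGC was 1.49 times and alanine codon GCC 1.39 times as frequent near summits as in these genes, whereas leucine codon TTA was at 0.383 times and lysine codon AAA at 0.447 times. Alanine made up 8.91% of residues near summits against 7.103% in the same genes, proline 8.10% against 6.86%, and lysine 3.69% against 5.22%.

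The most enriched words of 8 bases at summits were built from CAG and CTG. Of 2676 words found in at least 50 sites, counted once a site on either strand, the 5 that ranked highest by the difference in proportion between summit and flank windows over its standard error were CCAGCTGC, GCAGCAGC, CAGCAGCA, CCTGCAGC and CCTGCTGC. CCAGCTGC was at 3.88% of the sites and at 1.13% of their flank windows, and CAGCAGCA at 4.47% and 1.51%. In the 111052 windows of the same size in eligible exon with 55 to 65% GC, the words were at 2.60% and 3.20%, respectively, against 0.928% and 1.39% in all 739376 windows. CAGCAGCA was also at 4.86% of RNF12WT exon sites that overlapped another list and at 6.36% of RNF12H569A,C572A-only exon sites, so it was not particular to the RNF12WT-only sites. The words overlap each other in sequence and share sites.

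Few of these sites held the REX1 motif, as was so in the other classes without a REX1 peak. The string ATGGC, then G or T, then A, C or G, then C, taken from the REX1 logo, was looked for on either strand around each summit, up to 50 bp away. It was found at 167 sites (2.65%, 2.28% to 3.07%), against 1.85% (1.63% to 2.10%) of flank windows, 2.25% of all coding windows and 1.58% of all windows of eligible exon. In REX1-only exon sites it was at 10.8% (9.88% to 11.8%), and in RNF12WT exon sites that overlapped another list at 4.20% (3.72% to 4.75%). The classes without a REX1 peak were close to the RNF12WT-only exon sites, with 2.66% (2.13% to 3.31%) of RNF12H569A,C572A-only exon sites, and 2.67% (2.42% to 2.94%), 3.05% (2.73% to 3.41%) and 2.16% (1.84% to 2.52%) of RNF12WT-only sites in introns, between genes and at promoters. AAGATGGC, a core of the motif of the related factor YY1 that shares ATGGC with the REX1 string, was at 0.682% of the sites and 0.610% of flank windows, and at 0.678% of all windows. The string of the RNF12 logo, with 1 mismatch allowed, was at 18 sites (0.285%, 0.181% to 0.451%), at 0.143% of flank windows and at 0.131% of all windows of eligible exon. It was also rare at RNF12WT exon sites that overlapped another list (0.276%, 0.170% to 0.447%), at RNF12H569A,C572A-only (0.419%, 0.240% to 0.731%) and REX1-only exon sites (0.279%, 0.156% to 0.498%) and at RNF12WT-only sites in introns (0.288%, 0.213% to 0.389%), between genes (0.512%, 0.388% to 0.674%) and at promoters (0.320%, 0.213% to 0.480%), while 4.48% of all RNF12WT peaks held it. These are matches of letters only.

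Although no site overlapped a peak of another list, many lay close to one. The gap to the nearest REX1 or RNF12H569A,C572A peak had a median of 1939 bp, and 2199 sites (34.9%, 33.7% to 36.04%) had one within 1 kb. RNF12WT-only sites in introns and between genes also lay farther from a TSS, with medians of 8600.5 and 14110.5 bp against 4761 bp. They were farther from another list's peak, with medians of 3273 and 4383 bp and shares within 1 kb of 23.8% (23.1% to 24.4%) and 20.5% (19.7% to 21.3%). The part of TSS distance in this was not tested. Neither other list stood out, as 23.1% of the sites had a REX1 peak and 22.5% an RNF12H569A,C572A peak within 1 kb. At the edge of the rule, 202 sites lay within 50 bp of another list's peak and had a median fold enrichment of 4.31, and 457 RNF12WT exon sites that were left out for an overlap of at most 50 bp had a median of 4.23, both at a median GC content of 61.4%. Likewise the 136 sites whose summits lay at most 100 bp outside the 1 kb limit around a TSS had a median enrichment of 4.54, and 153 RNF12WT-only exon peaks at most 100 bp inside it, which were left out, 4.52.

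**Figure D4:**
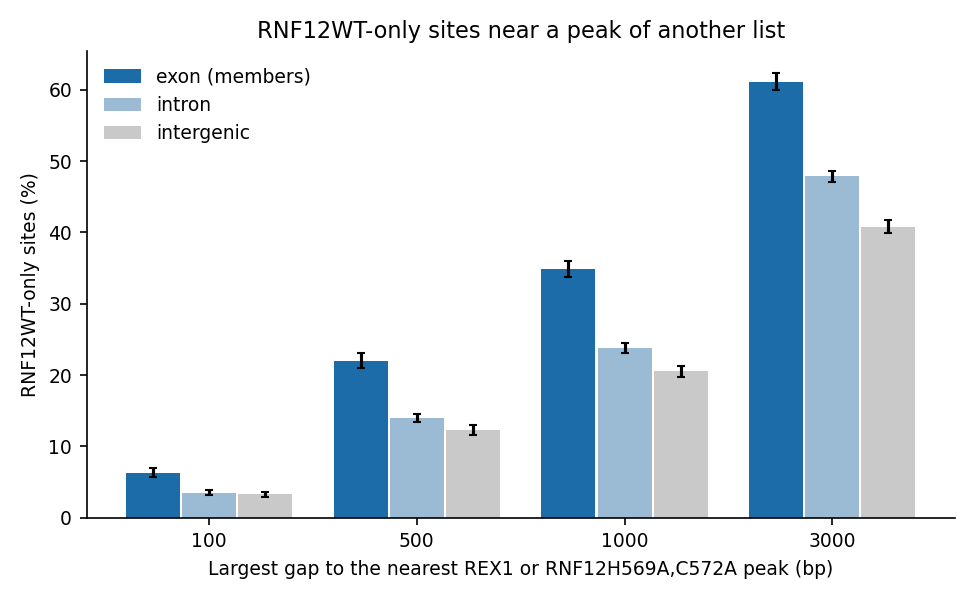
Share of RNF12WT-only sites (y axis, %) with a REX1 or RNF12H569A,C572A peak within 100, 500, 1000 or 3000 bp (x axis), for sites in exons, introns and between genes, with 95% Wilson intervals. At 1000 bp the shares are 34.9%, 23.8% and 20.5%.

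The 6309 sites fell in 4389 genes, of which 3161 had 1 site, 1228 had 2 or more and 65 had 5 or more. Of 20366 protein-coding genes with enough eligible exon for 1 window, 4083 had a site, which is 20.0%. Among the genes with the most sites, Hspg2, which encodes the basement membrane proteoglycan perlecan, had 13 sites in 13 different exons between exons 6 and 90 of 97, all coding, with fold enrichments from 2.82 to 6.55 (median 4.18). Sspo, the gene for SCO-spondin, had 11 in as many exons (3.21 to 5.97), and the hemicentin gene Hmcn2 10 (3.21 to 5.40). The presynaptic scaffold gene Bsn had 9 in 5 exons, 2 of them in the 3′ UTR, and Trio 9, of which 7 were coding. Per kb of eligible exon these were 1.03, 0.801, 0.680, 0.653 and 0.551 sites. Summit GC content in these 5 genes ranged from 53.5% to 69.3%.

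Genes with a site had an RNF12WT peak at their own TSS more often than genes without. An RNF12WT summit lay within 1 kb of a TSS in 3606 of 4083 (88.3%, 87.3% to 89.3%) and in 10739 of 16283 (65.95%, 65.2% to 66.7%), respectively. For genes with under 1 kb of eligible exon the shares were 78.01% (72.4% to 82.8%) and 51.1% (49.5% to 52.8%), and for those with 4 kb or more they were 92.8% (91.5% to 93.9%) and 81.5% (80.3% to 82.7%). The shares were similar for REX1 peaks at the TSS, at 86.1% and 64.9%, and for RNF12H569A,C572A peaks, at 86.0% and 64.8%. The part of base composition in these differences was not tested.

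The lists of genes described next were drawn up by symbol, and their shares are to be read beside the 20.0% of all protein-coding genes and their rates beside 87.5 sites per Mb of eligible exon. Because the lists differ in base composition, each is also given as the ratio of its sites to the number that eligible exon of the same class and GC content holds over the whole genome. Of 70 axon guidance genes 33 (47.1%) had a site, of 45 collagen genes 20 (44.4%), of 78 chromatin regulator genes 34 (43.6%) and of 44 cadherin superfamily genes outside the protocadherin clusters 19 (43.2%). At the same class and GC content, axon guidance genes had 1.01 times (0.766 to 1.30) that number, chromatin regulators 1.07 (0.833 to 1.36), the cadherin genes 0.948 (0.660 to 1.32) and collagens 0.609 (0.417 to 0.860). The strongest sites were at 6.91 in the ephrin receptor gene Epha8, 6.37 in the semaphorin receptor gene Plxna2 and 6.37 in Epha1, at 8.21 in Col4a4 and Col6a3 and 6.37 in Col12a1, and at 6.90 in the endothelial cadherin gene Cdh5, 5.77 in Celsr1 and 5.65 in Celsr2. Among chromatin regulators they were at 7.85 in the remodeller gene Chd7 (coding), 7.40 in the histone acetyltransferase gene Ep300 (coding) and 7.25 in the histone methyltransferase gene Kmt2d (3′ UTR).

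Ion channel genes had a site in 38 of 120 (31.7%), developmental transcription factor genes in 48 of 171 (28.1%) and pluripotency factor genes in 5 of 18 (27.8%), with ratios at like class and GC content of 0.791 (0.599 to 1.02), 0.921 (0.703 to 1.19) and 1.43 (0.616 to 2.81). The highest fold enrichments were 7.48 in the potassium channel genes Kcnn3 and Kcna2 and 6.74 in the sodium channel gene Scn11a. They were 7.85 in Pax8, 6.83 in Foxn1 and 6.48 in the 3′ UTR of Hoxa10. In the pluripotency list they were 6.001 in the coding sequence of Dppa4 (exon 3 of 7), 5.68 in that of Sall4 (exon 3 of 4) and 5.07 in the 3′ UTR of Tbx3, whose site was 324 bp from a REX1 peak and 344 bp from an RNF12H569A,C572A peak. None of these 3 lists had a ratio whose interval left out 1.

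Genes listed by symbol as C2H2 zinc finger, without a check of the finger type, had a site in 84 of 467 (17.99%). The C2H2 family is a large one of DNA-binding factors, many with long coding last exons. Zfp746 (7.26), Zfp341 (6.91) and Zfp956 (6.67) led the list, whose ratio was 0.850 (0.705 to 1.02). The clustered protocadherins, with 10 of 57 genes (17.5%) and Pcdha9 and Pcdhb15 at 7.48 and Pcdhgc5 at 4.81, had a ratio of 0.499 (0.249 to 0.894), with exons shared between their genes counted once. Olfactory and vomeronasal receptor genes, which are expressed in sensory neurons, had a site in 7 of 1281 (0.546%), with the highest in Olfr535 (5.26), Olfr718-ps1 (5.13) and Olfr958 (4.81). Their eligible exon of 3.61 Mb gave 1.94 sites per Mb (0.780 to 4.00), which was 0.294 times (0.118 to 0.605) the number of the same class and GC content.

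Of the 10 genes of the RNF12-REX1 axis, 2 had sites, the same 20.0% as among all protein-coding genes, and the ratio at the same class and GC content was 1.20 (0.247 to 3.50) for 3 sites. Smad7, which encodes an inhibitory SMAD and is a known RNF12 substrate, had 2 in its 3′ UTR, in exon 4 of 4, at fold enrichments of 5.33 and 3.19, which lay 334 and 838 bp from an RNF12H569A,C572A peak. Ldb1, which encodes a cofactor of LIM domain proteins, had 1 in the coding sequence of its last exon, at 3.93, with an RNF12H569A,C572A peak 6 bp away. No site was found in Rlim, Zfp42, Xist, Tsix, Yy1, Yy2, Smad3 or Hdac2. Of these, Hdac2 lies on chromosome 10, Yy1 on chromosome 12, and Rlim, Xist, Tsix and Yy2 on X. These chromosomes had the lowest rates of sites, as given below. Xist and Tsix each had 1 RNF12WT exon summit that overlapped another list, while Rlim, with 8695 bases of eligible exon, had none.

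The chromosomes were uneven, and taking class and GC content into account narrowed the differences without removing them. The rate over all classes was 15.8 sites per Mb (11.7 to 20.8) on chromosome 12, 28.4 (22.6 to 35.3) on X and 30.1 (25.1 to 35.8) on chromosome 10, and between 48.6 on chromosome 13 and 139 on chromosome 11 elsewhere. Relative to eligible exon of the same class and GC content, chromosome 12 had 0.2495 times (0.185 to 0.329) and chromosome 10 0.419 times (0.349 to 0.498) the genome-wide number, X 0.760 times (0.604 to 0.943), and the other 17 between 0.986 and 1.17 times, with intervals that lay above 1 for chromosomes 2, 9, 11 and 16. The genome-wide number includes chromosomes 10 and 12, so their deficit raises the ratios of the other chromosomes. The intervals above 1 are therefore not read as an excess. RNF12WT exon sites that overlapped another list were at 36.9 per Mb on chromosome 12 and 44.6 on chromosome 10, against 69.4 genome-wide, whereas RNF12H569A,C572A-only exon sites were at 46.7 and 47.2 against 34.2, and REX1-only exon sites at 74.1 and 55.5 against 47.2. The cause of the deficit in the RNF12WT list was not tested.

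**Figure D5:**
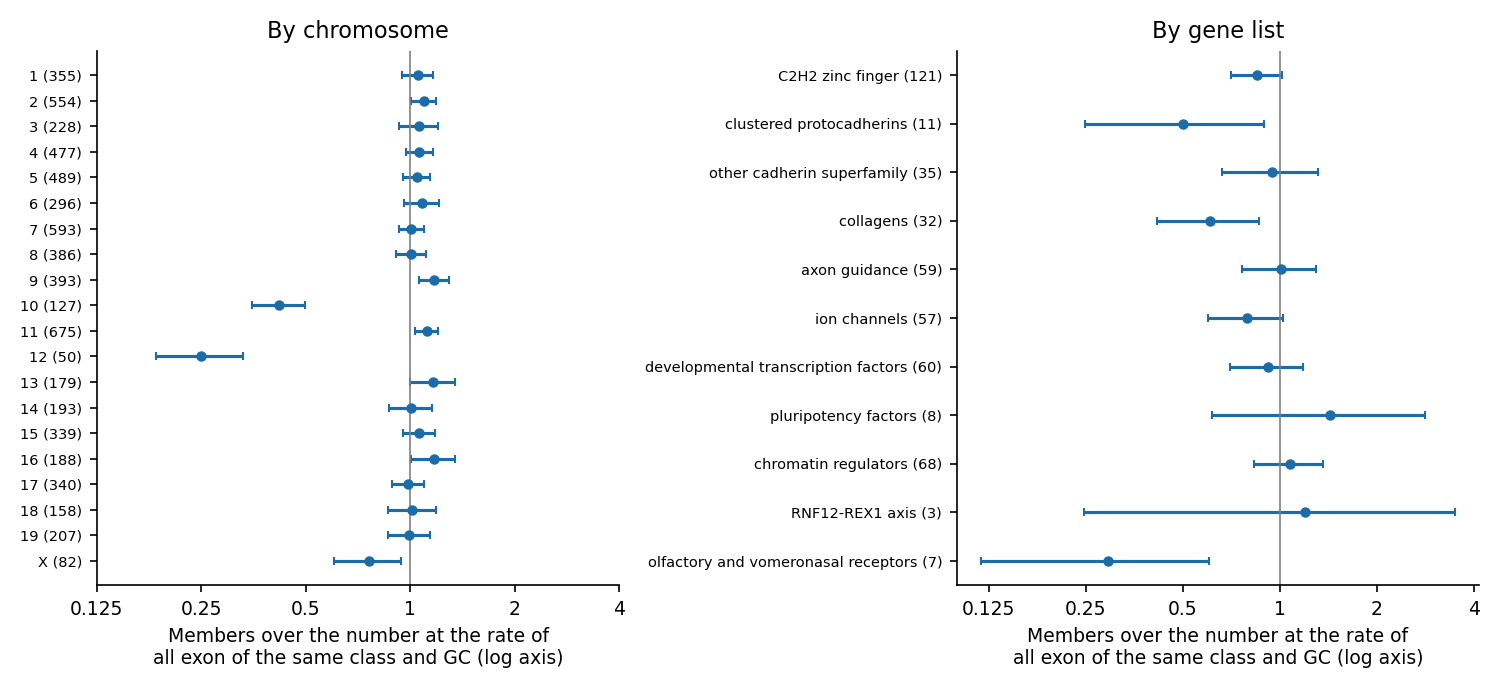
Number of sites over the number that all eligible exon of the same class and GC content gives (x axis, log scale), by chromosome and by gene list, with the number of sites in parentheses and 95% Poisson intervals as bars. Chromosomes 12 (0.2495) and 10 (0.419) and the olfactory and vomeronasal receptors (0.294) lie farthest below 1.

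Distance to the TSS had little further weight once class and GC content were taken into account. The rate in coding sequence fell from 207 sites per Mb (196 to 218) at 1 to 3 kb from a TSS to 119 (105 to 135) at 30 to 100 kb and 77.9 (47.6 to 120) beyond. At the same class and GC content the ratio was 0.949 (0.909 to 0.9899) at 1 to 3 kb, 1.03 (0.9901 to 1.07) at 3 to 10 kb, 1.04 (0.984 to 1.10) at 10 to 30 kb and 0.977 (0.871 to 1.09) at 30 to 100 kb. By length of the merged exon, the ratio was 0.763 (0.655 to 0.884) under 100 bp, 1.16 (1.11 to 1.22) at 100 to 200 bp, 1.17 (1.11 to 1.24) at 200 to 500 bp and 0.900 (0.848 to 0.954) at 3 kb and above. Coding exons of 100 to 200 bp held 177 sites per Mb (168 to 186), against 97.3 (90.8 to 104) for RNF12WT sites that overlapped another list, which were most frequent at 1 to 3 kb, at 281 per Mb (266 to 297).

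The 32 bases at the summit occurred in more than 1 place on chromosomes 1 to 19, X and Y in 168 sites (2.66%, 2.29% to 3.09%), against 23.2% (21.7% to 24.8%) of RNF12H569A,C572A-only exon sites, 5.43% (4.87% to 6.04%) of RNF12WT exon sites that overlapped another list and 4.13% (3.55% to 4.79%) of REX1-only exon sites. A soft-masked base lay within 50 bp of the summit in 1108 sites (17.6%, 16.6% to 18.5%), against 16.1% (15.2% to 17.1%) of RNF12WT exon sites that overlapped another list, 30.5% of RNF12H569A,C572A-only and 23.9% of REX1-only exon sites, 35.0% of RNF12WT-only intron sites and 41.7% of those between genes.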

How the data were processed

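The authors' ChIP-seq peak lists were used as deposited. Per the labels and the paper, reads (36 bases for the RNF12 libraries) were trimmed with Trim Galore 0.6.7, aligned with Bowtie2 2.5.0 to an mm10 genome masked at strain differences, handled with SAMtools 1.10, merged over alleles, and peaks were called with MACS2 2.2.7.1. The deposited columns hold the authors' fold enrichment over the control, a ratio, with −log10 p-values and −log10 q-values, and a score that was not used. Which control stood behind which list was not settled, so fold enrichments were compared only within the RNF12WT list. The lists hold no read totals.

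Sequence came from GRCm38 and annotation from GENCODE M21. A site counted as coding where any transcript had coding sequence there, otherwise as UTR, otherwise as non-coding, and it was given to the gene of the longest such transcript. Eligible exon and sites were binned by the GC content within 50 bp. Shares carry Wilson and rates Poisson intervals at 95%. Words had to be in 50 sites or more. Genes were named by rule: the 10 coding, 5 UTR and 3 non-coding sites with the highest fold enrichment, the 5 genes with most sites, the 3 strongest sites in each gene list and all in the RNF12-REX1 axis list. The pluripotency list held 19 genes, 18 with eligible exon. The sites, lists and rules were chosen with earlier results of these data known. The work was done in Python 3.11.15 with scipy 1.17.1, numpy 2.4.6 and pandas 2.3.3. The steps were tested on simulated data, where 2007 of 2007 planted exon sites and 1986 of 1986 planted overlaps were found. No test between conditions was made. Alternatives to the overlap, thresholds, TSS distance, exon set, repeats and windows were computed.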

Additional observations from a re-analysis of the deposited data

How the results depend on the processing

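Of 98 values under alternatives, 74 stayed within 1.5-fold of the count or within the interval of the share, mean or difference. Only the difference in mean GC content could change sign, and it did not. The number of sites was 8507 where only overlaps of 50% of both peaks counted as shared, 4921 with no other peak within 500 bp, and it moved by over 1.5-fold to 2140 at a −log10 q of at least 5 (25.6 per Mb) and to 4189 beyond 3 kb from every TSS. The coding share was 72.2% without soft-masked bases near the summit, 66.9% with the strongest site of each gene only and 59.8% with UTR taken before coding sequence. The 3′ UTR share was 18.2% without soft-masked bases. The last-exon share was 38.9% without sites near another peak and also without soft-masked bases, and 43.7% with 1 site per gene. The REX1 motif was at 5.14% within 100 bp. A peak of another list lay within 500 bp of 22.0% and within 3 kb of 61.2%; the 1 kb share was 16.5% once sites with a peak within 500 bp were left out and 33.5% with 1 site per gene. Sites wholly in an exon made up 70.9% at a −log10 q of at least 5 and with no peak within 500 bp, and 73.3% with 1 site per gene. A repeated summit word was in 3.28% with 1 site per gene. Mean GC content was 60.8% at a −log10 q of at least 5, 60.2% with no peak within 500 bp and 58.8% within 100 bp of the summit. Chosen after seeing the data, weighting by GC content brought the ratio of coding to 3′ UTR rates from 4.29 to 1.41, and taking class and GC content together brought that of chromosome X to all eligible exon from 0.377 to 0.760. The difference in mean GC content to RNF12WT exon sites that overlap another list, -3.31 points, ranged from -3.44 to -3.30.

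With 1 library per list, neither replicate error nor the lists' depth is known, and a peak absent from a list is one below that list's threshold. No paired analysis was possible because each group has 1 library and no result comes from a test.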

Other observations

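The strongest RNF12WT exon sites were the least often alone. When all 12114 RNF12WT exon sites more than 1 kb from a TSS were split into 10 equal groups by −log10 q, 57.3% (54.5% to 60.1%) of the lowest group and 58.7% (55.9% to 61.5%) of the sixth were in no other list, against 44.3% (41.5% to 47.1%) of the ninth and 29.6% (27.1% to 32.3%) of the highest, of which 60.6% overlapped an RNF12H569A,C572A peak and 49.9% a REX1 peak. The overlaps are what the rule used, so these shares describe the selection, and the part of GC content in them was not tested.

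Non-coding exons with a site also included 26 in processed pseudogenes and 14 in unprocessed pseudogenes, whose sequence resembles that of their parent genes.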
